A study of Mus musculus with 8 samples.

Results

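The genes described here are the amino acid transporters of 7 solute carrier families in mouse liver: Slc1, Slc3, Slc6, Slc7, Slc36, Slc38 and Slc43. They were chosen by symbol alone, as every row of the deposited count table named by a family prefix followed by a number, which gave 59 of 22946 rows, none of them a joined row. RNA-seq read counts were available for livers of C57 Black mice labelled MLL4 het or wild-type, MLL4 being the histone methyltransferase encoded by Kmt2d, with no allele given. From 8 weeks of age the mice ate either a high fat diet (HFD) or normal chow for 8 weeks. The 4 groups were het-labelled HFD (libraries 7 and 8), het-labelled chow (3 and 4), wild-type HFD (5 and 6) and wild-type chow (1 and 2), with 2 libraries each. The question named in the series design is which genes HFD alters in wild-type liver and alters less in MLL4 het liver.

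Hepatocytes take up amino acids from portal blood for protein synthesis, gluconeogenesis and urea formation, and they also take up osmolytes and precursors such as taurine, betaine and creatine. Slc38 proteins carry glutamine, alanine and other small neutral amino acids with sodium, Slc7 light chains exchange neutral or cationic amino acids and several of them must pair with an Slc3 heavy chain, and Slc1 proteins carry glutamate or small neutral amino acids. Not every row fits the name amino acid transporter. Within Slc6, Slc6a8 carries creatine, Slc6a12 betaine and GABA, Slc6a2, Slc6a3 and Slc6a4 monoamines, and Slc43a3 carries nucleobases.

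Library totals lay between 14142884 and 18928676 counts, and the transporter rows together took between 0.329% and 0.427% of a library. The unit used for levels is CPM, counts of a gene per 1e+06 library counts after TMM scaling. In CPM, 3 counts equalled 0.161 in the deepest and 0.213 in the shallowest libraries. The labels do not tie libraries to animals, so the p-values reflect variation among these 8 libraries and that variation may be technical. Kmt2d, listed as Mll2, was not lower in the libraries labelled het: it stood at 62.7 and 75.3 CPM in het-labelled HFD, 59.9 and 72.0 in het-labelled chow, 63.3 and 64.7 in wild-type HFD, and 61.2 and 69.6 in wild-type chow libraries. Summed hepatocyte markers were between 64289 and 80210 CPM in every library, as the liver label says. They summed to 66780 and 64289 CPM in het-labelled HFD and 78323 and 73858 in het-labelled chow libraries. Wild-type sums were 67505 and 67506 CPM on HFD and 80210 and 75770 on chow. Every HFD sum was below every chow sum, and Alb made up most of each sum. Of the 6 markers, edgeR called 0 for the diet in either genotype. Markers of other cells also differed between groups. The 7 Kupffer cell and macrophage markers summed to 211 and 127 CPM in het-labelled HFD, 397 and 312 in het-labelled chow, 127 and 133 in wild-type HFD, and 140.1 and 125 in wild-type chow libraries. The 4 erythroid markers summed to 349.98 and 371 CPM in het-labelled HFD, 239.5 and 253 in het-labelled chow, 828 and 654 in wild-type HFD, and 320.1 and 258 in wild-type chow libraries. The 4 adipocyte markers summed to 20.9 and 13.0 CPM in wild-type HFD libraries and to at most 4.88 CPM in any other library. In wild-type HFD libraries nearly all of that sum was Cfd, while Adipoq, Plin1 and Lep were each at most 0.0547 CPM. The sum is thus a measure of Cfd and not of adipocytes. In bulk RNA, fewer cells of a type and less RNA per cell cannot be told apart.

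Of the 59 rows, 31 were abundant enough to test, 19 had a few counts and 9 had 0 counts in every library. A row was tested when at least 2 libraries reached about 0.614 CPM. Of the tested rows 29 reached that level in all 8 libraries. Slc7a11 reached it only in both groups on chow, and Slc7a1 in both het-labelled chow libraries and in 1 library each of wild-type HFD and wild-type chow, so a difference in these genes is partly built into the filter. By family, 3 of 7 Slc1 rows, 2 of 2 Slc3, 5 of 17 Slc6, 8 of 15 Slc7, 2 of 4 Slc36, 8 of 11 Slc38 and 3 of 3 Slc43 rows were tested. Among the untested rows the highest count in any library was 21, of Slc6a4, the serotonin transporter, and the other untested rows had at most 8 counts in a library.

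Per kilobase of exon, Slc38a3 and Slc38a4 stood far above the other transporters. Slc38a3 (SNAT3), which carries glutamine, asparagine and histidine, averaged 357 ± 48.5 CPM per kb in het-labelled HFD, 301 ± 4.08 in het-labelled chow, 321 ± 5.11 in wild-type HFD and 336 ± 31.1 in wild-type chow livers (SD, n = 2 each). Slc38a4 (SNAT4), a hepatic carrier of alanine and other small neutral amino acids, averaged 264 ± 15.5 CPM per kb in het-labelled HFD, 229 ± 31.9 in het-labelled chow, 260.3 ± 3.72 in wild-type HFD and 296 ± 17.1 in wild-type chow livers (SD, n = 2 each). Together both genes held 65.9% of the summed CPM per kb of all 59 rows.

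Next in this order of levels came Slc6a13 (GAT2, a carrier of GABA and taurine) at a mean of 78.8 CPM per kb over all libraries, Slc7a2 (CAT2, the hepatic carrier of arginine and lysine) at 64.5, Slc38a2 (SNAT2) at 35.6, Slc6a12 (BGT1, betaine and GABA) at 25.5, Slc6a6 (TAUT, taurine) at 16.4, Slc38a10 at 16.2 and Slc1a2 (GLT-1, glutamate) at 10.8. Slc6a6 and Slc38a10 changed places when the longest transcript was used as the length, so their order is not settled. The 5 highest genes held 85.9% of the sum. At the other end of the tested rows, Slc7a11 (xCT, the cystine-glutamate exchanger), Slc38a1, Slc7a1 (CAT1) and Slc7a14 were all under 0.16 CPM per kb. Exon lengths came from GENCODE M21 on GRCm38, and the counts were made on mm9, so these levels are approximate.

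**Figure D1:**
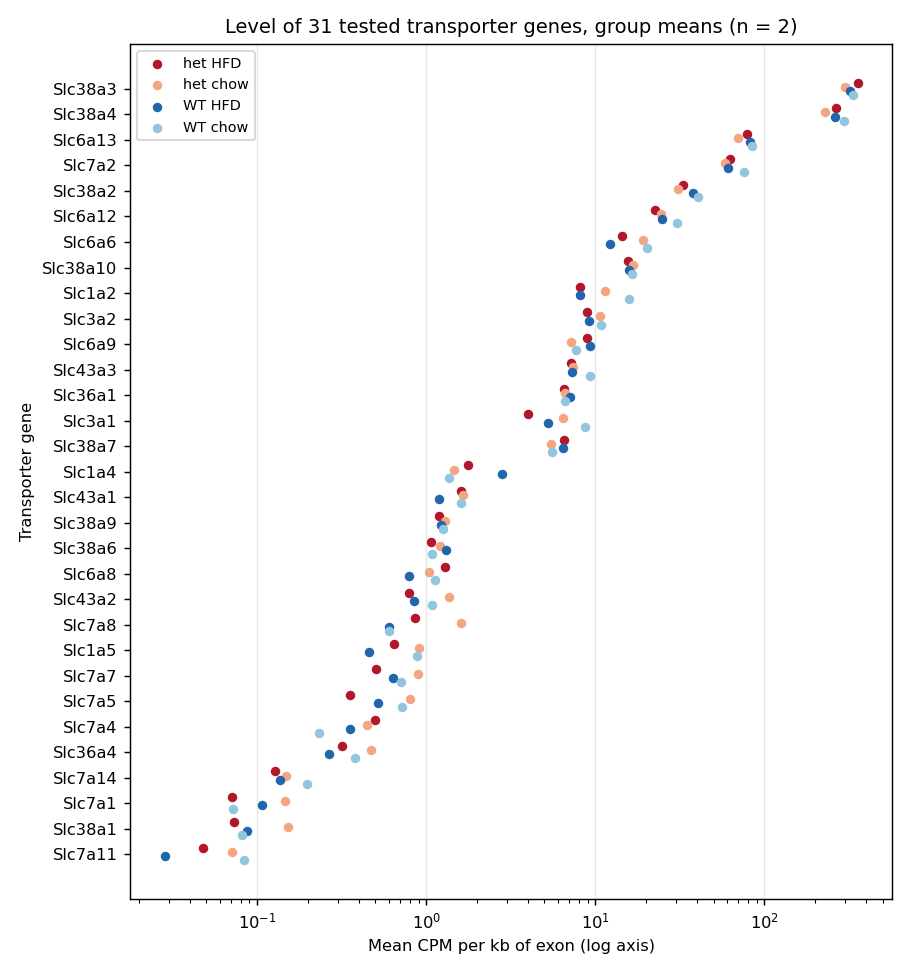
Mean level of the 31 tested transporter genes in CPM per kb of exon (horizontal log axis), ordered by the mean over all libraries. Each point is the mean of the 2 libraries of a group; Slc38a3 and Slc38a4 stand apart at the top, and group means of most genes lie close together relative to the range between genes.

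In het-labelled livers no transporter gene passed the test for HFD against chow. With edgeR 0 of 31 rows were called at an adjusted p under 0.05 (0%, against 3.02% of all 12593 tested rows, 1.53% higher and 1.48% lower), and DESeq2 also called 0, while 12 had an unadjusted edgeR p under 0.05 (38.7%, against 18.2% of all tested rows). The log2 changes were negative in 21 rows and positive in 10, with a median of -0.11 against -0.01 over all tested rows. The diets did not overlap in 19 rows (61.3%), against 44.7% of all tested rows. The 19 include Slc7a1 and Slc7a11, which in het-labelled livers reached the filter level only on chow.

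On HFD, 3 transporter genes fell and 1 rose in wild-type livers. The 4 called rows were 12.9% of the 31 tested, against 4.59% of all 12593 tested rows (edgeR adjusted p under 0.05). Slc1a2, Slc3a1 and Slc6a6 fell, where 2.22% of all tested rows fell, and Slc1a4 rose, where 2.37% did. The log2 changes were negative in 22 rows and positive in 9, with a median of -0.19 against 0.02 over all tested rows. The libraries of both diets did not overlap in 19 of the 31 rows (61.3%), against 55.9% of all tested rows. These 19 include Slc7a11, which reached the filter level only on chow. In the same comparison 2 of 3 tested erythroid markers and Cfd, the 1 tested row of the adipocyte list, rose. Of the hepatocyte zone markers, 2 of 6 periportal and 2 of 7 pericentral ones fell. The part of all these markers in the transporter results was not tested.

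The interaction of genotype and diet, which tests whether the diet effect differs between genotypes, gave 0 calls with edgeR (0% of all tested rows) and 0 with DESeq2 among the transporters. An unadjusted p under 0.05 was found in 6 of 31 (19.4%, against 7.15% of all tested rows). A call made in 1 genotype alone therefore does not show that its diet effects differ. The diet effects of both genotypes, which share no library, had the same sign in 20 of 31 rows (64.5%), against 64.0% of all tested rows.

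Averaged over both genotypes, HFD against chow called 7 of 31 rows (22.6%, against 10.4% of all tested rows). Slc1a2, Slc1a5, Slc3a1, Slc6a6 and Slc7a5 fell, where 4.84% of all tested rows fell, and Slc1a4 and Slc6a9 rose, where 5.56% did. All HFD libraries were apart from all chow libraries in 9 rows (29.0%), against 13.1% of all tested rows. The 9 include Slc7a11, which reached the filter level only on chow, so its separation is partly built in.

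**Figure D2:**
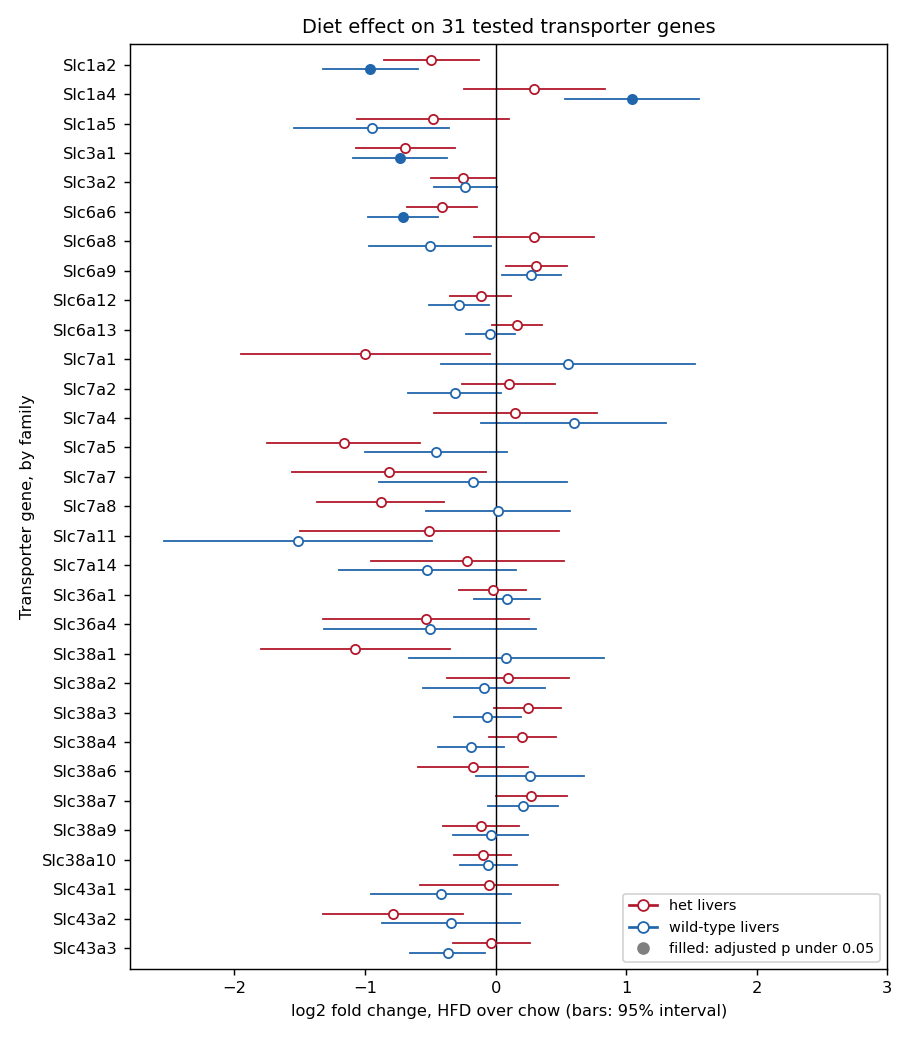
Log2 fold change of HFD over chow with its 95% interval for the 31 tested transporter genes, by family, in het-labelled livers (red, upper of each pair) and wild-type livers (blue, lower). Filled points passed an adjusted p under 0.05: Slc1a2, Slc3a1 and Slc6a6 on the lower side and Slc1a4 on the higher side, all in wild-type livers.

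Of the 4 changes called in wild-type livers, Slc1 held the 2 largest. Slc1a2, or GLT-1, is a high-affinity glutamate transporter known in rodent liver from the pericentral hepatocytes that make glutamine. It had 95.1 and 100.4 CPM in het-labelled HFD, 122 and 153 in het-labelled chow, 109 and 87.3 in wild-type HFD, and 215 and 167 in wild-type chow libraries. Every HFD library was below every chow library. The log2 fold change of HFD over chow was -0.49 ± 0.16 in het-labelled livers (edgeR adjusted p = 0.146), -0.96 ± 0.16 in wild-type livers (edgeR adjusted p = 0.0138) and -0.73 ± 0.11 averaged over genotypes (edgeR adjusted p = 0.00544), each ± SE. The wild-type call ended without wild-type HFD library 6 (edgeR adjusted p = 0.102) or wild-type chow library 1 (edgeR adjusted p = 0.109), and the averaged call held without any single library. Of the 7 pericentral hepatocyte markers, edgeR called 2 lower on HFD in het-labelled livers, Cyp1a2 and Oat, where 1.48% of all tested rows fell. In wild-type livers it called 2 lower, Cyp1a2 and Axin2, where 2.22% of all tested rows fell. Glul, glutamine synthetase, which shares that zone, stood at 1052 and 818 CPM in wild-type HFD and 954 and 991 in wild-type chow libraries (log2 fold change -0.06 ± 0.12, edgeR adjusted p = 0.844). The 7 markers summed to 8719 and 8226 CPM in wild-type HFD and 10323 and 9030.1 in wild-type chow libraries. Most of that sum was Cyp2e1, at 6392 and 6311 CPM on HFD and 7501 and 6258 on chow (edgeR adjusted p = 0.736). The sum therefore does not weigh the 7 markers evenly, and their part in the Slc1a2 result was not tested.

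Slc1a4 and Slc1a5, the neutral amino acid exchangers ASCT1 and ASCT2, went in opposite directions in the averages over genotypes, where Slc1a4 rose and Slc1a5 fell on HFD. Slc1a4 had 8.47 and 5.47 CPM in het-labelled HFD, 6.80 and 4.69 in het-labelled chow, 11.1 and 11.1 in wild-type HFD, and 5.48 and 5.27 in wild-type chow libraries. It was thus highest in both wild-type HFD libraries, while the het-labelled diets overlapped. Its log2 fold change on HFD was 0.30 ± 0.24 in het-labelled livers (edgeR adjusted p = 0.578), 1.04 ± 0.23 in wild-type livers (edgeR adjusted p = 0.0371) and 0.67 ± 0.16 averaged (edgeR adjusted p = 0.0356). The wild-type call ended without any 1 of wild-type libraries 1, 2, 5 and 6 (edgeR adjusted p = 0.158 to 0.234), and the averaged call without any of these or het-labelled libraries 4 and 7 (edgeR adjusted p = 0.0786 to 0.114). On HFD the log2 difference of het-labelled over wild-type livers was -0.65 ± 0.22 and did not pass (edgeR adjusted p = 0.244).

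Slc1a5 was scarcer, at 1.98 and 1.56 CPM in het-labelled HFD, 2.76 and 2.24 in het-labelled chow, 1.10 and 1.42 in wild-type HFD, and 2.39 and 2.49 in wild-type chow libraries. All 4 HFD libraries were below all 4 chow libraries. Averaged over genotypes it fell by 0.71 ± 0.18 on the log2 scale (edgeR adjusted p = 0.0420), a call that ended with DESeq2 (adjusted p = 0.198) and without any 1 library except het-labelled chow library 4 (edgeR adjusted p = 0.0667 to 0.128). The remaining Slc1 rows, Slc1a1, Slc1a3, Slc1a6 and Slc1a7, were not tested.

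Slc1a4 and Slc7a11 are among the known targets of ATF4, a transcription factor of amino acid shortage. Their promoter windows and that of Slc1a2 are shown. The composite element of ATF4 can be spelled in part as TGATGNAA. Capitals mark every match on either strand, and the windows run 5′ to 3′ on the gene's strand from 250 bases before to 50 bases after the annotated start (RefSeq, build GRCm38.p6).
Slc1a4 (chr11:20332664-20332963, minus strand): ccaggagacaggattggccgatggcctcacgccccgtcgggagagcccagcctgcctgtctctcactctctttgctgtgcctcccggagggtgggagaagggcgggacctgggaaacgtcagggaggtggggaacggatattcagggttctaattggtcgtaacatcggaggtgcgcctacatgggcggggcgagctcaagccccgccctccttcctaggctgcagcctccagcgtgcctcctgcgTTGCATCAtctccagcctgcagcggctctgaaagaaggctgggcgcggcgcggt
Slc7a11 (chr3:50443564-50443863, minus strand): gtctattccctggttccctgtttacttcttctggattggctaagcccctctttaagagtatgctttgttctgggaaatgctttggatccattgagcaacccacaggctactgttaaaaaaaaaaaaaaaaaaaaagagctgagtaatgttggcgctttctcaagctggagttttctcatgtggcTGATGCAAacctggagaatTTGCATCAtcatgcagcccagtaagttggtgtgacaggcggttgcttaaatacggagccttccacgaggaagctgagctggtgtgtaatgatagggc
Slc1a2 (chr2:102706188-102706487, plus strand): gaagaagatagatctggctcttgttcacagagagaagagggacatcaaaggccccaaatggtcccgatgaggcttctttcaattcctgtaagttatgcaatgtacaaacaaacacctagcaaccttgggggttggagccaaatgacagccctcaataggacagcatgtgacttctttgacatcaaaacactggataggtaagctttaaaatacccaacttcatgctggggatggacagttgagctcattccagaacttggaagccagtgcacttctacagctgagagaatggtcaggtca
Slc1a4 holds 1 match, beginning 4 bases before the start, Slc7a11 holds 2, beginning 66 and 47 bases before the start, and Slc1a2 holds none. The motif was searched as TGATGNAA and as its reverse complement TTNCATCA. It was present in 3.97% of all 32851 promoter windows of this length and in 4 of the 38 windows of tested transporters (10.5%). Those 4 windows belong to 3 of the 22 tested genes that had a window. The third is Slc7a7, whose 2 windows with the motif overlap and share a match. Tested genes without a window, among them Slc1a5, Slc6a6, Slc7a5, Slc38a3 and Slc7a2, could not be searched. No match was found in the windows of Slc3a2, Slc38a2 or Slc7a1. Whether ATF4 acts on any of these genes was not tested.

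The Slc3 heavy chains are not transporters themselves but carry Slc7 light chains to the membrane. Slc3a1 (rBAT), the heavy chain of the cystine and dibasic amino acid carrier, had 7.94 and 10.2 CPM in het-labelled HFD, 15.5 and 13.7 in het-labelled chow, 11.2 and 12.6 in wild-type HFD, and 17.8 and 21.7 in wild-type chow libraries. All HFD libraries were below all chow libraries. Its log2 fold change on HFD was -0.69 ± 0.17 in het-labelled (edgeR adjusted p = 0.0667), -0.73 ± 0.16 in wild-type (edgeR adjusted p = 0.0371) and -0.71 ± 0.12 averaged over genotypes (edgeR adjusted p = 0.00648). The wild-type call ended without any 1 of libraries 1, 2, 5 and 6 (edgeR adjusted p = 0.101 to 0.225), whereas the averaged one held without any single library. Its known light chain partner Slc7a9 had at most 1 count in any library, and the other known partner, Slc7a13, had 0 counts in all 8, which allows up to 3 counts in each.

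Slc3a2 (4F2hc), the heavy chain of most other light chains, varied less, with 25.4 and 28.7 CPM in het-labelled HFD, 31.3 and 32.9 in het-labelled chow, 27.7 and 28.0 in wild-type HFD, and 35.2 and 30.2 in wild-type chow libraries. Here too the HFD libraries were all below the chow libraries. The averaged log2 fold change of -0.24 ± 0.08 did not pass (edgeR adjusted p = 0.0843).

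Slc6 is the family of sodium- and chloride-coupled carriers of osmolytes, creatine, glycine and transmitters. Slc6a6, the taurine transporter, had 83.9 and 93.8 CPM in het-labelled HFD, 132 and 104 in het-labelled chow, 78.3 and 73.5 in wild-type HFD, and 126 and 123 in wild-type chow libraries. No HFD library reached a chow library. The log2 fold change of HFD over chow was -0.41 ± 0.12 in het-labelled (edgeR adjusted p = 0.112), -0.71 ± 0.12 in wild-type (edgeR adjusted p = 0.0137) and -0.56 ± 0.08 averaged over genotypes (edgeR adjusted p = 0.00454). The wild-type call ended without any 1 of libraries 1, 2, 5 and 6 (edgeR adjusted p = 0.0648 to 0.105), and the averaged call held without any single library. Without het-labelled chow library 4 the het-labelled change was -0.57 and passed (edgeR adjusted p = 0.0414).

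Enzymes that supply taurine were measured beside it. Csad, which makes hypotaurine, had 75.98 and 86.5 CPM in het-labelled HFD, 179 and 131 in het-labelled chow, 67.8 and 73.7 in wild-type HFD, and 199 and 246 in wild-type chow libraries. It fell on HFD, with a log2 fold change of -0.94 ± 0.16 in het-labelled (edgeR adjusted p = 0.0246) and -1.65 ± 0.16 in wild-type livers (edgeR adjusted p = 0.00181). Cth, which makes cysteine from cystathionine, also fell, with a log2 fold change of -0.89 ± 0.11 in het-labelled (edgeR adjusted p = 0.00828) and -1.05 ± 0.11 in wild-type livers (edgeR adjusted p = 0.00240). Cdo1, the cysteine oxidase between them, was picked for its place in the pathway with its values known. Its log2 fold change was 0.20 ± 0.11 in het-labelled (edgeR adjusted p = 0.380) and 0.01 ± 0.11 in wild-type livers (edgeR adjusted p = 0.979).

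Slc6a9 (GLYT1), a glycine transporter, had 34.5 and 30.8 CPM in het-labelled HFD, 25.1 and 27.5 in het-labelled chow, 35.6 and 33.1 in wild-type HFD, and 29.3 and 27.4 in wild-type chow libraries. All HFD libraries were above all chow libraries. The change was small, with a log2 fold change of 0.29 ± 0.07 averaged over genotypes (edgeR adjusted p = 0.0362). It ended with DESeq2 (adjusted p = 0.116) and without any 1 library other than het-labelled libraries 4 and 8 (edgeR adjusted p = 0.0647 to 0.153).

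The 2 Slc6 rows with the highest level per kb of exon, Slc6a13 and Slc6a12, lie next to each other on chromosome 6 (GRCm38.p6) and were not called in any comparison. Slc6a12, which takes up betaine, had 59.1 and 61.4 CPM in het-labelled HFD, 59.6 and 70.8 in het-labelled chow, 68.7 and 64.6 in wild-type HFD, and 78.1 and 83.7 in wild-type chow libraries. On both diets its het-labelled libraries were below the wild-type ones, and the averaged log2 difference of het-labelled over wild-type livers was -0.23 ± 0.07 (edgeR adjusted p = 0.121). Slc6a13 ranged between 150.2 and 193 CPM over the 8 libraries. Its genotypes overlapped on HFD. On chow the het-labelled libraries, at 163 and 150.2 CPM, were below the wild-type ones, at 184 and 193 (log2 difference -0.26 ± 0.08, edgeR adjusted p = 0.194). Slc6a8, the creatine transporter, had 4.50 and 5.69 CPM in het-labelled HFD, 3.82 and 4.42 in het-labelled chow, 3.52 and 2.79 in wild-type HFD, and 4.60 and 4.35 in wild-type chow libraries, with the smallest interaction p of the transporters (log2 difference of the diet effects 0.80 ± 0.29, edgeR adjusted p = 0.668).

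**Figure D3:**
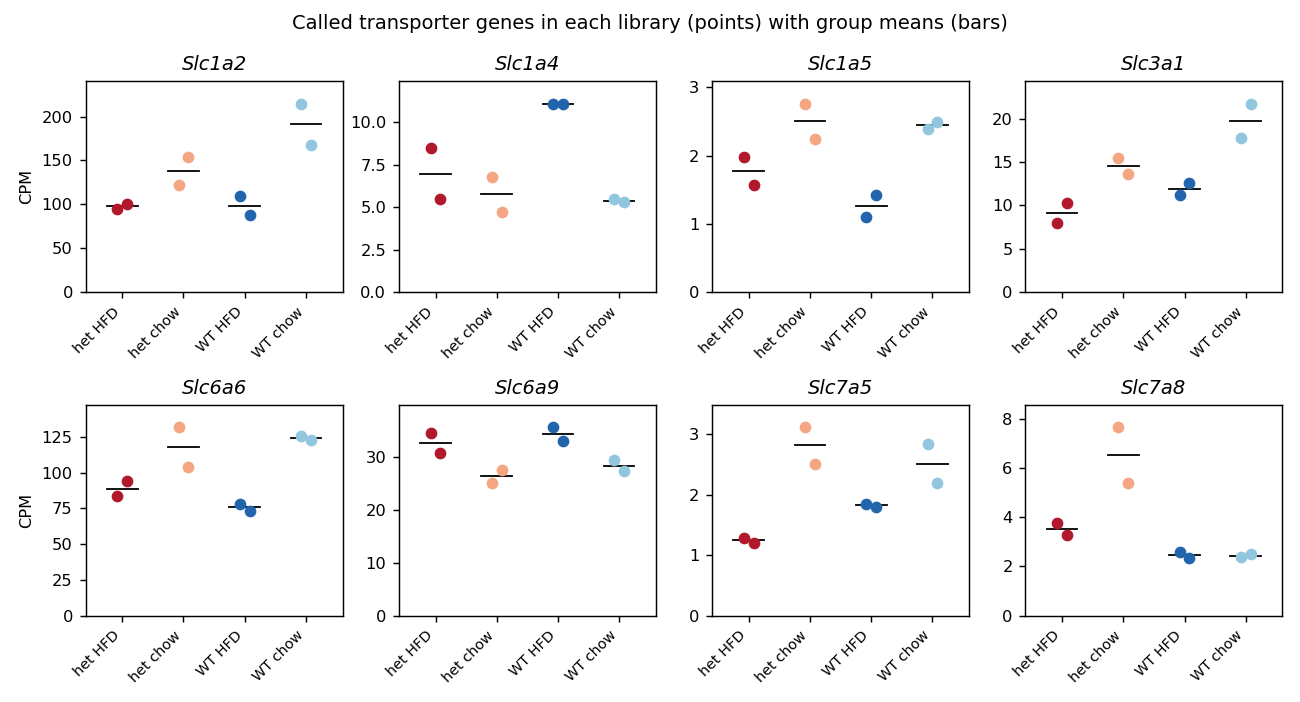
CPM of the 8 transporter genes called in at least 1 comparison, in each library (points) with the mean of each group of 2 (bars). For Slc1a2, Slc1a5, Slc3a1, Slc6a6 and Slc7a5 the HFD points of each genotype lie below the chow points, for Slc6a9 they lie above, Slc1a4 is highest in wild-type HFD, and Slc7a8 is high in het-labelled chow.

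Slc7 holds the cationic amino acid transporters and the light chains of the heteromeric carriers. Its most abundant member, Slc7a2, had 525 and 559 CPM in het-labelled HFD, 450.5 and 562 in het-labelled chow, 449 and 609.5 in wild-type HFD, and 617 and 699 in wild-type chow libraries. The het-labelled diets overlapped and the diets did not in wild-type livers, where the log2 fold change of -0.31 ± 0.16 did not pass (edgeR adjusted p = 0.326). Among the other tested Slc7 rows Slc7a8 reached 7.65 CPM, and the rest reached at most 3.12 CPM in any library.

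Slc7a8 (LAT2), a light chain that exchanges neutral amino acids, was the only transporter called between genotypes. It had 3.75 and 3.27 CPM in het-labelled HFD, 7.65 and 5.37 in het-labelled chow, 2.60 and 2.35 in wild-type HFD, and 2.39 and 2.49 in wild-type chow libraries. Both het-labelled groups were above all wild-type libraries, and the chow libraries were the highest. The log2 difference of het-labelled over wild-type livers was 0.51 ± 0.23 on HFD (edgeR adjusted p = 0.378), 1.41 ± 0.22 on chow (edgeR adjusted p = 0.0462) and 0.96 ± 0.16 averaged over diets (edgeR adjusted p = 0.0228). HFD over chow gave a log2 fold change of -0.88 ± 0.21 in het-labelled livers (edgeR adjusted p = 0.0671) and 0.02 ± 0.24 in wild-type livers (edgeR adjusted p = 0.983), and the difference of these diet effects was -0.90 ± 0.32 (edgeR adjusted p = 0.669). The chow call ended without any 1 of libraries 1, 2, 3, 5 and 6 (edgeR adjusted p = 0.0801 to 0.326) and with only the 4 libraries compared (edgeR adjusted p = 0.0710), and the averaged call without the same libraries (edgeR adjusted p = 0.0525 to 0.107). Without het-labelled chow library 4, the fall on HFD in het-labelled livers passed (log2 fold change -1.12, edgeR adjusted p = 0.0439).

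Kupffer cell and macrophage markers moved with Slc7a8. Of the 7 tested markers, edgeR called 3 higher in het-labelled than in wild-type livers on chow, where 0.326% of all tested rows were. It called 5 lower on HFD than on chow in het-labelled livers, where 1.48% of all tested rows were. No marker was at 0. Clec4f, a Kupffer cell lectin, stood at 74.9 and 50.3 CPM in het-labelled HFD, 123 and 109.6 in het-labelled chow, 49.5 and 50.2 in wild-type HFD, and 53.5 and 47.6 in wild-type chow libraries. In het-labelled HFD library 8 the marker sum was 127 CPM, within the wild-type range of 125 to 140.1, while its Slc7a8 level of 3.27 CPM was above all wild-type libraries. The part of these cells in the Slc7a8 result was not tested.

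Of the 31 tested rows, 12 had their highest group mean in wild-type chow livers (38.7%, against 20.9% of all tested rows). Each HFD group held 4 (12.9%, against 22% in het-labelled and 27.9% in wild-type livers). The other 11 had it in het-labelled chow livers (35.5%, against 29.2%). Of these, Slc7a7, Slc7a1 and Slc38a1 were set beside the Kupffer cell markers after their values were seen, and others such as Slc7a5, Slc1a5, Slc36a4 and Slc43a2 were not. Slc7a7 (y+LAT1), a light chain for cationic and neutral amino acids, had 1.501 and 1.14 CPM in het-labelled HFD, 2.62 and 2.11 in het-labelled chow, 2.13 and 1.20 in wild-type HFD, and 1.89 and 1.85 in wild-type chow libraries. Slc7a1 had 0.590 and 0.426 CPM in het-labelled HFD, 1.20 and 0.884 in het-labelled chow, 0.923 and 0.601 in wild-type HFD, and 0.630 and 0.406 in wild-type chow libraries. Slc38a1 (SNAT1), a glutamine carrier, had 0.643 and 0.924 CPM in het-labelled HFD, 1.56 and 1.70 in het-labelled chow, 1.04 and 0.820 in wild-type HFD, and 0.819 and 0.927 in wild-type chow libraries. None of these 3 passed in any comparison. On chow the log2 difference of het-labelled over wild-type livers was 0.33 ± 0.31 for Slc7a7 (edgeR adjusted p = 0.654), 1.01 ± 0.42 for Slc7a1 (edgeR adjusted p = 0.300) and 0.89 ± 0.31 for Slc38a1 (edgeR adjusted p = 0.231).

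**Figure D4:**
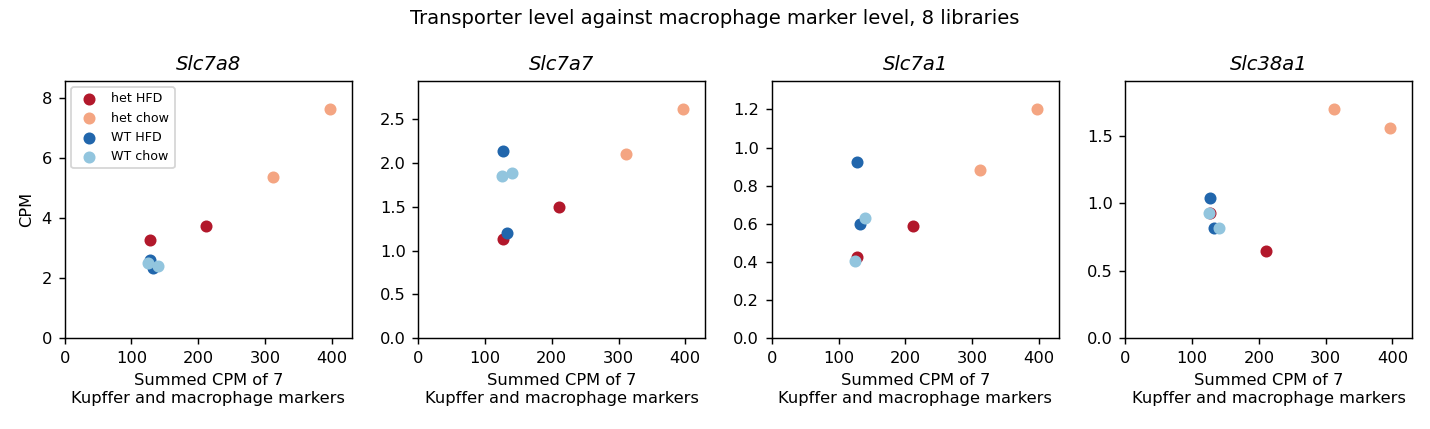
CPM of Slc7a8, Slc7a7, Slc7a1 and Slc38a1 (vertical axes) against the summed CPM of 7 Kupffer cell and macrophage markers (horizontal axis) in the 8 libraries, coloured by group. Both het-labelled chow libraries, at marker sums of 397 and 312, also have the highest Slc7a8 and Slc38a1 levels, and het-labelled HFD library 8 has more Slc7a8 than the wild-type libraries at a like marker sum.

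Slc7a5 (LAT1), the light chain for large neutral amino acids, had 1.29 and 1.21 CPM in het-labelled HFD, 3.12 and 2.52 in het-labelled chow, 1.85 and 1.80 in wild-type HFD, and 2.83 and 2.20 in wild-type chow libraries. In both genotypes the HFD libraries were below the chow libraries. Its log2 fold change on HFD was -1.16 ± 0.26 in het-labelled livers (edgeR adjusted p = 0.0509), -0.46 ± 0.24 in wild-type livers (edgeR adjusted p = 0.346) and -0.81 ± 0.18 averaged over genotypes (edgeR adjusted p = 0.0227). The averaged call ended with DESeq2 (adjusted p = 0.0993) and without any 1 of libraries 1, 3, 5, 6, 7 and 8 (edgeR adjusted p = 0.0528 to 0.0952). The Kupffer cell markers were lower on HFD in het-labelled livers as well, and their part in this result was not tested.

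Slc7a11, which imports cystine for glutathione synthesis, lay near the limit of detection, with 11 and 5 counts in het-labelled HFD, 11 and 9 in het-labelled chow, 4 and 6 in wild-type HFD, and 15 and 12 in wild-type chow libraries. In wild-type livers the log2 fold change on HFD was -1.52 ± 0.45 and did not pass (edgeR adjusted p = 0.105). Slc7a4 had 1.88 and 1.56 CPM in het-labelled HFD, 1.42 and 1.70 in het-labelled chow, 1.38 and 1.09 in wild-type HFD, and 0.756 and 0.869 in wild-type chow libraries. The het-labelled libraries were above the wild-type libraries of the same diet, and the averaged log2 difference of 0.71 ± 0.21 did not pass (edgeR adjusted p = 0.100).

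The Slc38 family, the largest by level, had no called row in any of the 7 comparisons. Slc38a3 had 1147 and 1392 CPM in het-labelled HFD, 1080.3 and 1059.8 in het-labelled chow, 1156 and 1130.2 in wild-type HFD, and 1116 and 1273 in wild-type chow libraries. Slc38a4 had 1132 and 1041 CPM in het-labelled HFD, 849 and 1035 in het-labelled chow, 1084 and 1062 in wild-type HFD, and 1171 and 1271 in wild-type chow libraries. Slc38a4 was thus higher on HFD in het-labelled and lower on HFD in wild-type livers without overlap, and lower in het-labelled than in wild-type livers on chow (log2 difference -0.37 ± 0.11, edgeR adjusted p = 0.176).

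Slc38a2 (SNAT2), a stress-inducible carrier of small neutral amino acids, had 131 and 178 CPM in het-labelled HFD, 138 and 152 in het-labelled chow, 137 and 215 in wild-type HFD, and 198 and 177 in wild-type chow libraries. The diets overlapped in both genotypes, and the genotypes overlapped on HFD. On chow its het-labelled libraries were below the wild-type ones (log2 difference -0.37 ± 0.21, edgeR adjusted p = 0.429). Slc38a1, Slc38a2 and Slc38a4 lie next to one another on chromosome 15 and differed in level from about 1.05 to 1081 CPM. For the lysosomal members, the log2 fold change of HFD over chow averaged over genotypes was 0.24 ± 0.08 for Slc38a7, an exporter of glutamine and asparagine (edgeR adjusted p = 0.111), and -0.08 ± 0.09 for Slc38a9, the arginine sensor of mTORC1 (edgeR adjusted p = 0.655; 95% interval -0.28 to 0.13). Slc38a10 ranged between 80.4 and 94.8 CPM and Slc38a6 between 6.80 and 9.84 CPM.

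No Slc36 or Slc43 row was called in any comparison. Slc36a1 (PAT1), a proton-coupled carrier of small amino acids in lysosomes, ranged between 32.6 and 39.2 CPM, and Slc36a4 between 1.37 and 3.90 CPM. Slc43a2 (LAT4), a facilitator for branched-chain amino acids, had 6.33 and 5.05 CPM in het-labelled HFD, 10.6 and 9.11 in het-labelled chow, 6.17 and 6.01 in wild-type HFD, and 9.63 and 5.85 in wild-type chow libraries. The wild-type diets overlapped, and the averaged log2 fold change on HFD of -0.56 ± 0.17 did not pass (edgeR adjusted p = 0.0684). It passed without wild-type chow library 2 (edgeR adjusted p = 0.0242). Slc43a1 (LAT3) ranged between 3.75 and 7.11 CPM. Slc43a3 had 19.3 and 17.6 CPM in het-labelled HFD, 21.0 and 16.9 in het-labelled chow, 19.1 and 18.4 in wild-type HFD, and 22.9 and 25.4 in wild-type chow libraries, where the diets did not overlap in wild-type livers (log2 fold change -0.37 ± 0.13, edgeR adjusted p = 0.158).

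Between genotypes, edgeR called 0 of 31 rows on HFD (0%, against 0.445% of all tested rows, 0.0953% higher and 0.349% lower), DESeq2 called 0, and 3 had an unadjusted p under 0.05 (9.68%, against 13.8% of all tested rows). On chow 1 row was called (3.23%, against 0.516% of all tested rows, 0.326% higher and 0.191% lower), and 11 had an unadjusted p under 0.05 (35.5%, against 15.3% of all tested rows). Averaged over diets 1 row was called (3.23%, against 3.24%, 1.21% higher and 2.03% lower), and 5 had an unadjusted p under 0.05 (16.1%, against 20.4% of all tested rows). Slc7a8 was the row in both. The genotypes did not overlap in 13 rows on HFD (41.9%, against 47.1% of all tested rows), 14 on chow (45.2%, against 45.9%) and 2 over both diets (6.45%, against 8.34%). The genotype effects on HFD and on chow, which share no library, had the same sign in 15 of 31 rows (48.4%), against 61.5% of all tested rows. The libraries of the genotypes were apart in the same direction on both diets in 4 of 31 transporters (12.9%, against 17.5% of all tested rows): lower in het-labelled livers for Slc3a1 and Slc6a12, and higher for Slc7a4 and Slc7a8.

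Enzymes and carriers that act beside these transporters gave the following counts. Of 11 tested genes of the urea cycle and ammonia handling, edgeR called 0 for HFD in het-labelled livers. There 3 of the 11 had an unadjusted edgeR p under 0.05, against 18.2% of all tested rows. DESeq2 called 1 there, lower on HFD. In wild-type livers 0 rose and 3 fell with edgeR (27.3% lower, against 2.22% of all tested rows). Those that fell were Cps1, the entry enzyme of the urea cycle (2070 and 2572 CPM in wild-type HFD against 3675 and 3614 in wild-type chow libraries; log2 fold change -0.65 ± 0.12, edgeR adjusted p = 0.0188), Ass1, whose row is joined with Gm5424, and Gls2, the liver glutaminase. Of 55 genes of amino acid breakdown, edgeR called 0 higher and 3 lower (5.45%, against 1.48% of all tested rows) on HFD in het-labelled livers, and 0 higher and 6 lower (10.9%, against 2.22%) in wild-type livers. DESeq2 called 1 higher and 5 lower in het-labelled livers, and 1 higher and 9 lower in wild-type livers. Averaged over genotypes, edgeR called 4 of the list higher (7.27%, against 5.56% of all tested rows), namely Gpt2, Gstz1, Mat1a and Prodh2, and 9 lower (16.4%, against 4.84%). Hal, which breaks down histidine, fell by 0.75 ± 0.13 on the log2 scale in wild-type livers (edgeR adjusted p = 0.0165). The median log2 fold change of that list on HFD was 0.01 in wild-type livers, close to the 0.02 over all tested rows. Between genotypes, averaged over diets, 52 of the 55 genes were lower in het-labelled livers. The median log2 difference was -0.19, against 0.01 over all tested rows. There edgeR called 0 higher and 5 lower (9.09%, against 2.03% of all tested rows), and DESeq2 called 0 higher and 9 lower.

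Among 25 tested ATF4 target genes outside these families, edgeR called 1 higher and 1 lower on HFD in each genotype (4% each way, against 1.53% higher and 1.48% lower of all tested rows in het-labelled and 2.37% and 2.22% in wild-type livers). Asns, asparagine synthetase, had 0.429 and 0.498 CPM in het-labelled HFD, 1.84 and 1.56 in het-labelled chow, 0.577 and 0.383 in wild-type HFD, and 5.73 and 7.53 in wild-type chow libraries. It fell on HFD in both genotypes, with a log2 fold change of -1.87 ± 0.36 in het-labelled (edgeR adjusted p = 0.0318) and -3.78 ± 0.29 in wild-type livers (edgeR adjusted p = 0.000476). It was also lower in het-labelled than in wild-type livers on chow (log2 difference -1.96 ± 0.24, edgeR adjusted p = 0.0262). The gene called higher was Ddit3 in het-labelled livers (log2 fold change 0.80 ± 0.17, edgeR adjusted p = 0.0460), a call that ended with DESeq2 (adjusted p = 0.0864), and Fgf21 in wild-type livers (1.67 and 1.15 CPM in wild-type HFD against 0.189 and 0.116 in wild-type chow libraries, edgeR adjusted p = 0.0168), where chow levels were at or under about 3 counts. Of 22 tested genes of mTORC1 amino acid sensing and 6 of the GCN2 pathway, edgeR called 0 for the diet in either genotype, and so did DESeq2. An unadjusted edgeR p under 0.05 was found for 3 of 22 mTORC1 genes and 1 of 6 GCN2 genes in het-labelled livers. The share of all tested rows there was 18.2%. In wild-type livers it was found for 3 of 22 and 0 of 6, against 19.1% of all tested rows.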

How the data were processed

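Liver RNA of 8 libraries in 4 groups of 2 was analysed, with groups and library numbers taken from the titles. The authors deposited 1 table of raw read counts per gene. The submitters' processing notes name the build mm9 and the tools TopHat2, HTSeq, CASAVA and DESeq; versions and roles are not given in the sources used here, nor is strand, so overlapping genes cannot be told apart. Tests on the deposited counts used edgeR 4.0.16 under R 4.3.3 (filterByExpr, 12593 of 22946 rows; TMM; a quasi-likelihood model of 4 group means over all 8 libraries), with 2-sided tests, Benjamini-Hochberg adjustment over all tested rows and calls at an adjusted p under 0.05. SEs and 95% intervals are approximate, being derived from each log2 change and its F statistic. Each library was counted as its own replicate. Chi-square tests between both libraries of a group gave 15.8 to 17.3 per degree of freedom, above sampling noise. That spread cannot show whether both libraries came from different animals. Library totals of 14142884 to 18928676 limit the precision of scarce genes. The procedure was checked on simulated counts.

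The text gives the values of all called transporters, the 3 most abundant of each family, the 3 with the smallest interaction p and a fixed panel of hepatic transporters. Members, panel, companion lists and markers were chosen with earlier results of these data known. Promoter windows and gene order came from RefSeq tables of GRCm38.p6 and exon lengths from GENCODE M21. All 59 rows matched both by symbol, and 41 had a promoter window. Alternatives were DESeq2 1.42.0, its size factors (RLE), other filters, only the groups compared, and each library left out.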

Additional observations from a re-analysis of the deposited data

Results flagged for a closer look

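In 3 genes the libraries moved one way in one genotype or diet, without overlap, and the opposite way in the other. Slc38a4 was higher on HFD than on chow in het-labelled livers and lower in wild-type livers, with a log2 difference of the diet effects of 0.39 ± 0.16 (edgeR unadjusted p = 0.0358, adjusted p = 0.690). Slc6a8 was also higher on HFD in het-labelled and lower in wild-type livers, with a difference of 0.80 ± 0.29 (edgeR unadjusted p = 0.0221, adjusted p = 0.668). Slc7a1 was lower in het-labelled than in wild-type livers on HFD and higher on chow, with a difference of -1.55 ± 0.60 (edgeR unadjusted p = 0.0297, adjusted p = 0.682), at counts between 6 and 17 per library. None of the 3 passed the test of the difference. Such opposite moves were seen in 2 of 31 transporters for the diet and 1 of 31 for the genotype, against 629 and 637 of 12593 tested rows.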

How the results depend on the processing

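With RLE size factors in place of TMM, the number of called transporters was the same in all 7 comparisons. Leaving out 1 library at a time gave 0 to 2 calls for HFD against chow in het-labelled livers (0 with all libraries), 0 to 4 in wild-type livers (4 with all), 0 to 1 for het-labelled against wild-type on chow (1 with all), 3 to 6 for the diet averaged over genotypes (7 with all) and 0 to 2 for the genotype averaged over diets (1 with all). The genotype on HFD and the interaction stayed at 0. The wild-type diet count was 1, 0, 0 and 1 without libraries 5, 6, 1 and 2. With all rows of at least 1 count tested, the diet in het-labelled livers gave 3 calls (Slc3a1, Slc7a5 and Slc7a8) and the averaged genotype 2. With rows of a mean of at least 1 CPM, the diet in het-labelled livers gave 1 call, Slc7a5. DESeq2 called 4 in place of 7 for the averaged diet, and the fit of only the 4 libraries compared called 0 on chow between genotypes. No called transporter changed its direction under any of these 13 alternatives that was run; the cause of these shifts was not tested. No paired analysis was possible because the groups share no library number. Slc7a1 and Slc7a11 had at most 17 counts in a library, which limits what can be read from them.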

Other observations

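Carriers of amino acids and peptides outside the 7 families were measured beside them. Of 15 tested, 1 rose and 1 fell on HFD in het-labelled livers (6.67% each, against 1.53% higher and 1.48% lower of all tested rows), and 2 rose and 0 fell in wild-type livers (13.3% and 0%, against 2.37% and 2.22%). Slc17a8, which encodes the vesicular glutamate transporter VGLUT3, had 34.5 and 22.0 CPM in het-labelled HFD, 5.17 and 6.05 in het-labelled chow, 39.5 and 44.9 in wild-type HFD, and 7.18 and 11.4 in wild-type chow libraries. Its log2 fold change on HFD was 2.33 ± 0.27 in het-labelled (edgeR adjusted p = 0.00552) and 2.18 ± 0.25 in wild-type livers (edgeR adjusted p = 0.00320), more than that of any called row of the 7 families. Slc25a44, a mitochondrial carrier of branched-chain amino acids, rose on HFD in wild-type livers (85.5 and 82.5 CPM on HFD against 51.4 and 56.1 on chow; log2 fold change 0.64 ± 0.10, edgeR adjusted p = 0.00966). Slc15a3, a lysosomal peptide carrier, fell on HFD in het-labelled livers (3.97 and 2.49 CPM on HFD against 7.37 and 6.46 on chow; log2 fold change -1.07 ± 0.22, edgeR adjusted p = 0.0424). There edgeR also called 5 of the 7 Kupffer cell and macrophage markers lower, against 1.48% of all tested rows. The part of these cells in the Slc15a3 result was not tested.

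Slc6a4, not tested, had 9 and 2 counts in het-labelled HFD, 0 and 1 in het-labelled chow, 21 and 5 in wild-type HFD, and 4 and 3 in wild-type chow libraries.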
